A study of Mus musculus with 9 samples.

Results

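Recovery from a blocked ureter was described by setting 3 released kidneys against 3 obstructed kidneys, 6 of the 9 arrays of the study, chosen by the treatment named on each label and described over all genes measured. In the obstructed arm (Clip) a vascular clip closed the left ureter for 2 days and the kidney was taken at the end of that time. In the released arm (ClipR-14) the clip was kept for 2 days and then taken off for 12 days. The remaining 3 arrays, from 2 sham-treated mice and 1 untreated mouse, served as the control arm and are given beside the results. All 9 mice were males of 10 weeks on a mixed strain background and carried the ISAM genotype, Epo–/–::3.3K-Epo3'-Tg458, a model of anaemia from lack of erythropoietin, so that every arm shared the anaemia and no mouse with normal erythropoietin was measured. The transgene and the deletion are described on the labels by name alone. Released kidneys were taken 12 days later after surgery than obstructed ones, and no kidney kept under obstruction for the whole time is among these arrays, so release of the clip and the time that passed cannot be told apart.

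A closed ureter raises the pressure in the tubules, and the tubule epithelium reacts by losing transporters and metabolic enzymes, by making injury and acute-phase proteins and by entering the cell cycle, while macrophages and matrix-producing fibroblasts fill the space between the tubules. When urine flow returns, surviving epithelial cells can regain their specialised functions, whereas inflammation and matrix may remain for longer. RNA of whole kidneys was measured, so a fall in a cell type's genes cannot be told apart from fewer cells of that type, and the same holds for a rise.

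Levels are log2 of the Cy3 signal over the 75th percentile of the same array, so that 0 is the signal of a fairly bright probe. They can be set side by side between arrays for 1 gene but not between genes. A change is the released minus the obstructed mean on this log2 scale, with its standard error from the fit and n = 3 arrays per arm, and p values are those of limma, adjusted by the Benjamini-Hochberg method over 17741 genes. "Rose" and "fell" mean a change from the obstructed to the released kidneys that passed adjusted p 0.05. Levels of an arm are given in the order of slides 1, 2 and 3, each of which carried 1 obstructed, 1 released and 1 control array, so values in the same place share a slide. Slide 3, with the untreated kidney, was scanned on another day. That percentile was a signal of 363 to 439 on the 6 arrays. Between 52.0% and 57.5% of probes were well above background. Across genes, which are not independent, arrays correlated at 0.989 to 0.990 within the obstructed arm, 0.985 to 0.990 within the released arm and 0.941 to 0.950 between them. The kidney labels were borne out by the tubule genes: Slc34a1, Kap and Umod were well above background on all 6 arrays. Epo, the gene deleted in these mice, was not among the genes that passed the filter on dim probes.

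Of the 17741 genes, 4178 rose (23.5%) and 3092 fell (17.4%), 41% in all, and 8705 passed at an unadjusted p under 0.05. At least 2-fold, 1345 genes rose (7.58%) and 1156 fell (6.52%). Of all genes, 289 rose and 392 fell at least 4-fold, and 21 rose and 33 fell at least 16-fold. Obstructed and released arrays did not overlap for 9715 genes (54.8%), among them 7209 of the 7270 called. With slide as a block 5217 genes rose and 3772 fell, and 7263 of the 7270 called genes moved the same way within each of the 3 slides (99.9%, against 74.8% of all genes). The called genes were chosen on these same arrays. Their lack of overlap and their shared direction within slides therefore follow largely from that choice and are not an independent check. The median change of all genes was 0.08, against 0.00 with quantile normalization and -0.10 with normexp background correction, and gene lists are to be read against these values and shares. The larger side turned with quantile normalization, to 3538 rises and 3831 falls. With normexp 2270 genes rose and 1874 fell. That correction gave the other sign for 836 of the 4178 rises, 779 of them with a mean level below -2, and for 0 of the falls, so rises of dim genes are less firm than the falls.

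**Figure D1:**
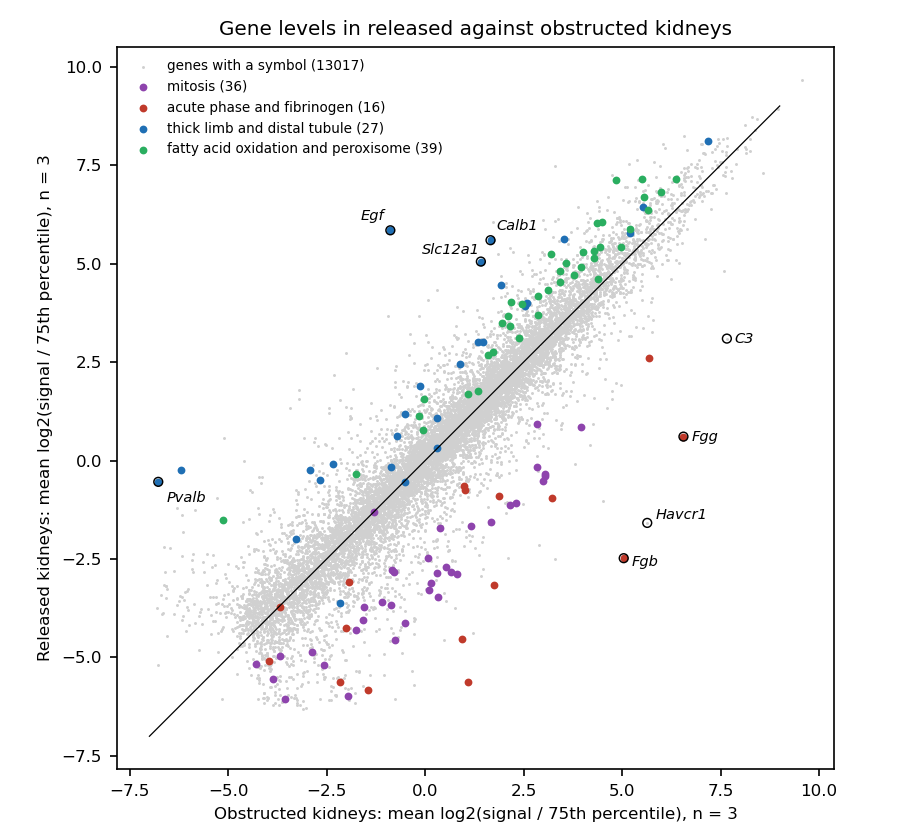
Mean level of each gene with a symbol in the obstructed kidneys (horizontal axis) and the released kidneys (vertical axis), both as log2 of the signal over the array's 75th percentile, n = 3 per arm, with the line of equal levels. Mitosis and acute-phase genes lie below the line, with Fgb farthest. Havcr1, a tubular injury gene of neither list, also lies far below it. Thick limb, distal tubule and fatty acid oxidation genes lie mostly above the line, with Egf and Pvalb farthest among those named.

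The steepest falls after release were in genes of the acute-phase response and of injured tubule epithelium. Fgb, which encodes the beta chain of fibrinogen, fell 184-fold, and Havcr1, which encodes the injury receptor KIM-1, fell 149-fold. Of 16 acute-phase genes tested 15 fell and 0 rose (median -3.28), and of 35 tubular injury genes 29 fell and 0 rose (median -1.61). Among all genes 17.4% fell.

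Fibrinogen is the clotting protein of plasma, built from 3 chains that are encoded side by side on chromosome 3 and are made mainly in the liver. Levels of Fgb were 5.51, 5.02 and 4.59 in the obstructed kidneys and -2.27, -2.21 and -2.96 in the released kidneys, a change of -7.52 ± 0.28 (adjusted p = 1.85e-06). Levels of Fgg, the gamma chain, were 6.88, 6.56 and 6.23 and 0.44, 0.60 and 0.78 (-5.95 ± 0.17, a fall of 61.8-fold, adjusted p = 1.05e-06). Levels of Fga, the alpha chain, were 3.45, 3.01 and 3.23 and -1.03, -0.91 and -0.94 (-4.19 ± 0.19, 18.3-fold, adjusted p = 3.71e-06). The arms were apart by several log2 units for every chain, and the released kidneys did not differ from control past the threshold (Fgb 1.29 ± 0.28, adjusted p = 0.0582; Fgg 0.45 ± 0.17, 0.174; Fga 0.47 ± 0.19, 0.207).

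The 250 bases upstream of the RefSeq start of each chain (GRCm38.p6, written 5′ to 3′ in the direction of the gene) are shown because the chains fell together. Capitals mark the letters CTGGGA on either strand, the core of the element that STAT3 is known to bind in acute-phase promoters. The windows are chr3:83049864-83050113, minus strand for Fgb, chr3:83007474-83007723, plus strand for Fgg and chr3:83025903-83026152, plus strand for Fga.
Fgb: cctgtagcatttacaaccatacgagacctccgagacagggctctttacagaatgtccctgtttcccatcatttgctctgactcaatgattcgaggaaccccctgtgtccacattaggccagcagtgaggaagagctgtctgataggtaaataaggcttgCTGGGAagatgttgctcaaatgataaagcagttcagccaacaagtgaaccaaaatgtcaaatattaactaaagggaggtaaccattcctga
Fgg: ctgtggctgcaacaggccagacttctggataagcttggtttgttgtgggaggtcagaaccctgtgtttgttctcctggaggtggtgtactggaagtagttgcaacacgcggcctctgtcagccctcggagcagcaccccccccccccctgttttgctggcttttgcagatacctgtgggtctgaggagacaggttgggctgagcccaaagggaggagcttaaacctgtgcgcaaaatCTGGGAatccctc
Fga: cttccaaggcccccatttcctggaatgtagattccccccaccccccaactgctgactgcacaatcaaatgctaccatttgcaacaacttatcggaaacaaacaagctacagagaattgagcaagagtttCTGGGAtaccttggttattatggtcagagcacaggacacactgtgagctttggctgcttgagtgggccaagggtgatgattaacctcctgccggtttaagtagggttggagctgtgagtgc
CTGGGA was found in all 3 windows, in 6 of the 12 acute-phase genes with a window, and in 28.5% of the windows of all 10391 tested genes that had one. It was also in 14 of 30 windows of mitosis genes (46.7%). A match of letters describes the window and does not show that a factor binds there.

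Genes of the serum amyloid A proteins, which are carried on lipoproteins during inflammation, fell with those of the fibrinogen chains. Saa1 had levels of 2.41, 0.99 and 1.86 in obstructed and -3.05, -2.84 and -3.61 in released kidneys (-4.93 ± 0.36, 30.4-fold, adjusted p = 2.62e-05), and a dimmer probe gave -6.12. Saa2 fell at least 34.5-fold and Saa3 at least 5.95-fold, since neither was well above background on any released array. Such a bound sets the brighter arm against the lowest signal that counted as above background on each array, and is not strict: with normexp the changes were -3.45 and -1.93. Saa1 and Saa2 are near copies, so their probes may share signal. Serpina10, a protease inhibitor that acts on clotting factors, fell 44.4-fold (-5.47 ± 0.58) but was well above background on only 1 released array, at -6.02, -4.41 and -3.19. Without the first released kidney its change was -4.73 and without the third -6.15. Itih4 alone did not pass (-0.05 ± 0.40, adjusted p = 0.939).

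Havcr1 was nearly the same on every obstructed array, 5.66, 5.64 and 5.61, and stood at -2.16, -1.33 and -1.26 in the released kidneys (-7.22 ± 0.36, adjusted p = 5.38e-06). Control levels were -4.25, -4.36 and -3.04, below every released kidney (released minus control 2.30 ± 0.36, adjusted p = 0.0333). With normexp limma called 0 genes higher in released than in control kidneys, and 741 were higher at an unadjusted p under 0.05, so this and all later calls of released above control hold only without that correction. Lcn2, which encodes NGAL, an iron-carrier-binding protein of injured tubules and neutrophils, fell from 2.88, 2.93 and 2.85 to -2.65, -2.37 and -1.41 (-5.03 ± 0.38, 32.6-fold, adjusted p = 3.24e-05). The 3 obstructed kidneys lay within a narrow range for both genes, and the released ones spread more.

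Other injury genes followed. Timp1, an inhibitor of matrix metalloproteinases, fell 46.0-fold (4.54, 4.67 and 4.31 against -1.60, -1.22 and -0.23; adjusted p = 1.25e-05). Sprr2f, a small proline-rich protein of stressed epithelium, fell 55.6-fold, with the third released kidney above the others (-3.16, -3.12 and -1.20; -5.80 ± 0.48, and -6.44 without it). Krt20, a keratin, fell 23.5-fold (adjusted p = 1.53e-05), and Sox9, a transcription factor that marks tubule cells in repair, fell from 0.39, 0.98 and 0.09 to -3.69, -3.27 and -3.13 (14.4-fold, adjusted p = 8.56e-05). Of the members that did not pass, Ccn2 had a change of 0.15 ± 0.28, Hbegf 0.31 ± 0.31 and Krt23 0.09 ± 0.19, and the arms overlapped in each of them.

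**Figure D2:**
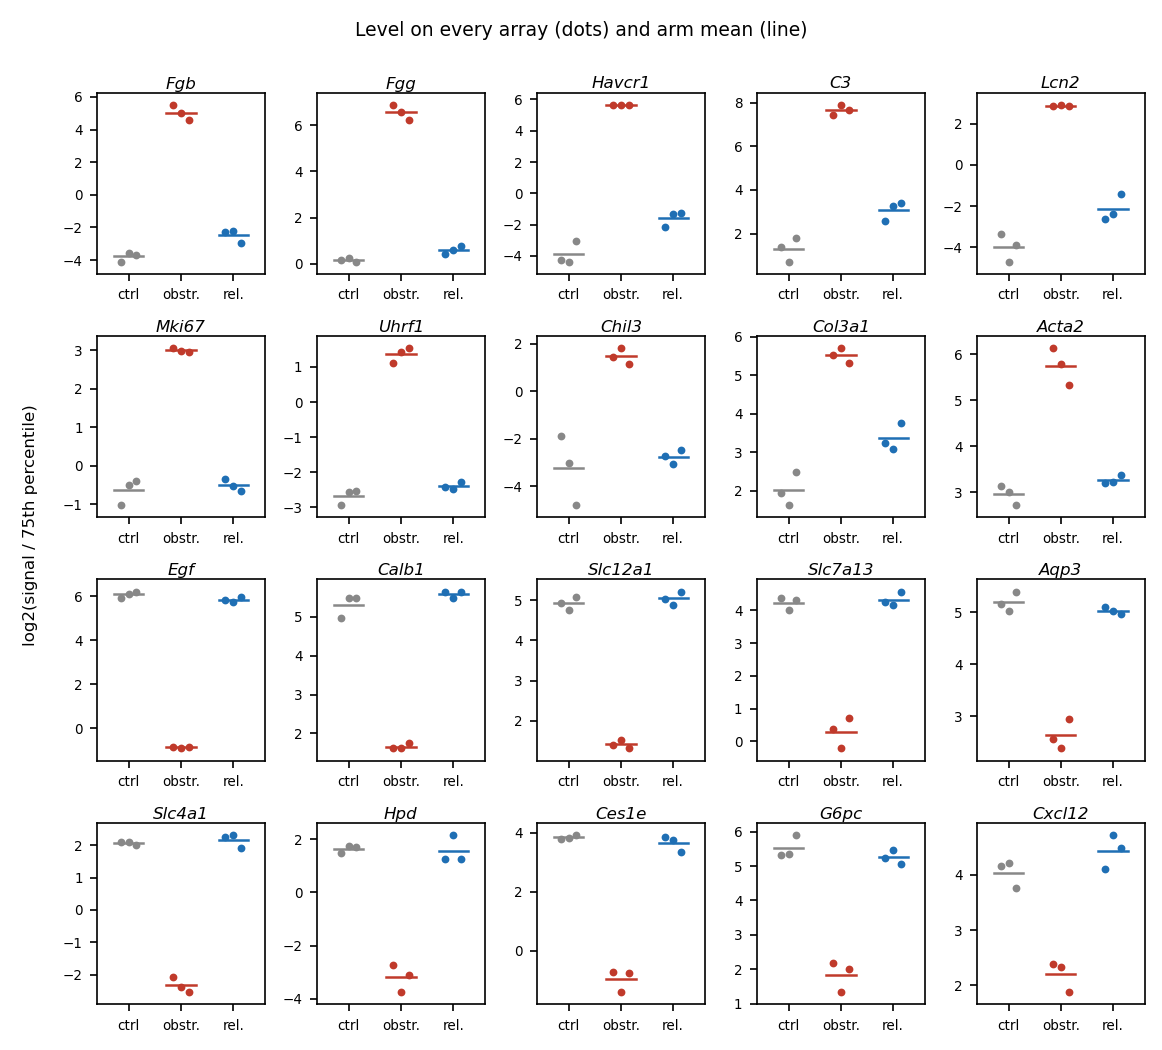
Level of 20 genes on every array, as log2 of the signal over the array's 75th percentile, with 3 control (grey), 3 obstructed (red) and 3 released kidneys (blue) and a line at each arm's mean; each panel has its own axis. The first 10 genes fell after release and the last 10 rose, with no overlap between obstructed and released kidneys in any panel.

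Genes of the cell cycle fell almost without exception. Of 36 mitosis genes 33 fell and 0 rose, with a median of -2.90, and of 32 DNA replication genes 31 fell and 1 rose, with a median of -1.68. Against control, the released kidneys stood at a median of 0.07 for mitosis and -0.08 for replication, and the obstructed kidneys at 3.1 and 1.54. Both comparisons use the same control arrays.

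Mitosis needs the kinases that start it, the motors that move chromosomes and the complexes that hold and part them. Aurkb, a kinase of chromosome segregation, fell at least 4.14-fold, to a level not well above background on any released array. Kif20a, a motor of the dividing midzone, had levels of 0.59, 0.19 and 0.22 and -2.71, -4.0 and -3.66 (-3.79 ± 0.36, 13.8-fold, adjusted p = 8.96e-05), with 2 of the released arrays well above background. Top2a, which untangles DNA, fell at least 9.41-fold from -0.69, -0.78 and -0.86. The proliferation marker Mki67 stood at 3.05, 2.99 and 2.96 in obstructed and -0.34, -0.52 and -0.66 in released kidneys (-3.51 ± 0.16, 11.4-fold, adjusted p = 4.16e-06), and Cdk1, the kinase that drives entry into mitosis, at 0.29, -0.13 and 0.15 and -2.94, -3.46 and -3.47 (-3.40 ± 0.18, 10.5-fold). For these genes no released kidney came near an obstructed one, and control levels (-1.02, -0.49 and -0.41 for Mki67) overlapped the released ones. The members that did not pass were Anln (-1.29 ± 0.49, adjusted p = 0.0635, and -0.64 without the third released kidney), Cenpa (-0.87 ± 0.81) and Bub1 (-0.03 ± 0.13), of which a dimmer probe gave -4.15.

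Promoters of mitosis genes are known to share CCAAT boxes, bound by NF-Y, and the cell-cycle homology element TTTGAA or TTCGAA. Top2a, Mki67 and Cdk1, mitosis genes that fell and whose windows hold both, are shown with these letters, on either strand, in capitals. Each window is the 250 bases upstream of the RefSeq start (GRCm38.p6, 5′ to 3′ in the direction of the gene). These 3 genes had the largest falls among the mitosis genes whose windows hold both, with genes of a single chromosome left out of the choice. The windows are chr11:99024190-99024439, minus strand for Top2a, chr7:135716380-135716629, minus strand for Mki67 and chr10:69352913-69353162, minus strand for Cdk1.
Top2a: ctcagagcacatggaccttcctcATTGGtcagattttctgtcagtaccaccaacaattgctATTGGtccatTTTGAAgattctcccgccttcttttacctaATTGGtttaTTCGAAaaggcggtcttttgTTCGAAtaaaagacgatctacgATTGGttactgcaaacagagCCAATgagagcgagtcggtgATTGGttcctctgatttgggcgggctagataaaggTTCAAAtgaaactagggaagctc
Mki67: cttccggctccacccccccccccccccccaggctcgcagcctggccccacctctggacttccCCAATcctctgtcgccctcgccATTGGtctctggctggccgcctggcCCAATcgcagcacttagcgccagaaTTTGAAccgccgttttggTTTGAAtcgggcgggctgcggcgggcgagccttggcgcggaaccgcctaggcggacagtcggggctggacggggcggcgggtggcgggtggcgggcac
Cdk1: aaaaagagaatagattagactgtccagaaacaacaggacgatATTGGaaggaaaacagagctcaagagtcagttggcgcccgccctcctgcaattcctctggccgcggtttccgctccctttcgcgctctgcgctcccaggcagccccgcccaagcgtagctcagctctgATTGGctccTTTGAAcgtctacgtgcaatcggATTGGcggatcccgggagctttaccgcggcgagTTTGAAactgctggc
Of 30 mitosis genes with a window 22 held CCAAT (73.3%), against 36.0% of the 10391 tested genes, and 11 held TTTGAA or TTCGAA (36.7%), against 12.3%. Both kinds were in 10 of the 30 (33.3%), against 4.73%. In the DNA replication list CCAAT was in 15 of 27 windows, and GCGGGAA, the letters of an E2F site, in 9 of 27 (33.3%), against 6.73% of tested genes and 0 of 30 mitosis genes. Missing letters say nothing about a factor beyond this window.

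Among replication genes Uhrf1, which carries DNA methylation through replication, fell 13.5-fold (1.11, 1.43 and 1.54 against -2.41, -2.49 and -2.29; -3.76 ± 0.15, adjusted p = 2.29e-06). Hells, a chromatin remodeller, fell at least 3.37-fold. Ccne1, the cyclin of entry into S phase, fell from 1.53, 1.50 and 1.80 to -1.45, -1.80 and -1.60 (9.37-fold, adjusted p = 3.71e-06), by the brighter of its probes; the other gave a change of -1.29. Tk1, thymidine kinase, fell 4.15-fold to levels below control (0.62, 0.52 and 0.38 against 1.32, 1.21 and 1.06). Among genes of p53 signalling and cell death 10 of 30 fell and 1 rose (median -0.24), led by the necroptosis kinase Ripk3 (-2.42 ± 0.18, 5.36-fold) and by Cdkn1a, the p21 inhibitor of cyclin-dependent kinases (-1.61 ± 0.23, 3.05-fold).

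Inflammatory genes fell, and macrophage genes among them. Of 30 macrophage and monocyte genes 23 fell and 0 rose (median -1.36). Against control the list's median was 2.12 in the obstructed and 0.71 in the released kidneys, with 10 members called higher than control in the released kidneys. Chil3, a chitinase-like protein of activated macrophages, fell from 1.43, 1.82 and 1.16 to -2.71, -3.05 and -2.48 (-4.22 ± 0.61, 18.6-fold, adjusted p = 0.000870). Trem2, a lipid-sensing receptor, fell 7.30-fold (0.66, 0.84 and 0.30 against -2.71, -2.32 and -1.78). The complement component genes C1qa, C1qb and C1qc, made by resident macrophages, fell 2.79-fold, 2.43-fold and 2.66-fold. Csf1r, the receptor for the macrophage growth factor, had levels of 2.21, 2.47 and 2.34 and 2.42, 2.50 and 2.61 by its brightest probe (0.17 ± 0.12, adjusted p = 0.286), and its 3 probes gave changes of 0.17 to 0.89. Ms4a7, another macrophage gene, had -0.49, -0.41 and -0.49 and -0.67, -0.65 and -0.19 (-0.04 ± 0.15), above control (-1.29, -1.43 and -1.68).

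Chemokines draw leukocytes into tissue. Of 24 tested 16 fell and 3 rose (median -1.64). Ccl20 fell at least 9.52-fold and Ccl7 at least 4.34-fold, neither being well above background on a released array. Cxcl10, an interferon-induced attractant of T cells, fell from 1.81, 3.42 and 2.20 to -1.24, -0.74 and -1.34 (-3.58 ± 0.40, 12.0-fold, adjusted p = 0.000225). Ccl2, the main monocyte attractant, fell 3.91-fold, from 1.16, 1.85 and 1.21 to -0.95, -0.13 and -0.61 (adjusted p = 0.000371), and stayed above the control levels of -2.47, -2.64 and -2.35 (released minus control 1.93 ± 0.24, adjusted p = 0.0212). Cxcl12, a chemokine of stromal cells and vessels, went the other way: 2.38, 2.34 and 1.88 in obstructed and 4.11, 4.72 and 4.48 in released kidneys, a rise of 4.72-fold (2.24 ± 0.21, adjusted p = 8.02e-05). Ccl21a, a lymph node chemokine, rose 2.20-fold (1.14 ± 0.29, adjusted p = 0.0137), and its probe may read close copies.

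Of 27 NF-kappaB and cytokine genes 23 fell and 1 rose (median -1.84). Il1rn, the antagonist of the interleukin-1 receptor, fell at least 13.3-fold and Il6 at least 2.53-fold. Socs3, a feedback inhibitor of cytokine signalling, fell from 3.86, 4.33 and 4.56 to 0.58, 0.90 and 1.27 (-3.33 ± 0.24, 10.1-fold, adjusted p = 2.31e-05). Il1b, the cytokine itself, was the member that rose, from -1.29, -0.47 and -0.94 to 0.40, -0.30 and -0.41 (0.79 ± 0.27, adjusted p = 0.0451). The arms were barely apart, and the call was lost with replicate number as a block (adjusted p = 0.117), with normexp (0.110) and without any 1 of obstructed kidneys 1 or 3, released kidneys 1 or 2 or either sham kidney (adjusted p up to 0.144). Interferon-stimulated genes fell in 23 of 28 cases and rose in 1 (median -0.95). The GTPase Gbp2 fell 4.13-fold (2.69, 3.13 and 2.82 against 0.66, 0.97 and 0.87), and the antiviral gene Rsad2 rose 1.43-fold (0.52 ± 0.15, adjusted p = 0.0231), a call lost without obstructed kidney 1 or 3 or released kidney 1 or 2 (adjusted p up to 0.0773).

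Complement genes did not move as one. Of 20, 10 fell and 3 rose (median -0.58). C3, the central component, fell from 7.41, 7.90 and 7.67 to 2.59, 3.27 and 3.42 (-4.56 ± 0.30, 23.7-fold, adjusted p = 1.74e-05), with control at 1.37, 0.72 and 1.80 (released minus control 1.80 ± 0.30, adjusted p = 0.0382). C4b fell 8.70-fold, and Cd55, a membrane protein that limits complement, rose 2.30-fold (1.20 ± 0.21, adjusted p = 0.00223). Of 13 MHC class II and dendritic cell genes 7 fell and 0 rose; H2-Ab1, a class II chain, fell 1.81-fold (5.32, 5.40 and 5.08 against 4.33, 4.50 and 4.38), and the invariant chain Cd74 had a change of -0.49 ± 0.21 (adjusted p = 0.0941, or 0.0421 with replicate number as a block).

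Lymphocyte lists were nearer the background of all genes, of which 17.4% fell and 23.5% rose. Of 20 T and NK cell genes 5 fell and 0 rose (median -0.27), and of 13 B and plasma cell genes 3 fell and 1 rose (median -0.30). Of 7 neutrophil genes 2 fell, Lcn2 and the receptor gene Csf3r, and 1 rose, Il1b. Csf3r was well above background on 1 released array. The granule genes S100a8 (-1.04 ± 0.48) and S100a9 (-1.11 ± 0.51) did not pass.

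The matrix that fills the space between tubules showed falls and rises together. Of 20 collagen genes 10 fell and 6 rose (median -0.39), against 17.4% and 23.5% of all genes. The falls held the chains of types I, III and V, and the rises Col27a1, Col4a3, Col4a4, Col6a1, Col6a2 and Col7a1. Col3a1 stood at 5.54, 5.71 and 5.33 in obstructed and 3.25, 3.09 and 3.77 in released kidneys (-2.16 ± 0.25, 4.46-fold, adjusted p = 0.000255), and Col1a1 at 5.11, 5.42 and 5.13 and 2.99, 3.02 and 3.46 (-2.07 ± 0.25, 4.19-fold, adjusted p = 0.000333). The arms were apart, and each released kidney lay above every control kidney for both genes (control 1.95, 1.63 and 2.50 for Col3a1 and 1.96, 1.35 and 2.36 for Col1a1). Col8a1, a short-chain collagen of vessel walls, fell 5.66-fold, from 4.64, 4.81 and 4.23 to 2.10, 2.02 and 2.06 (-2.50 ± 0.16, adjusted p = 1.39e-05).

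Among the rises, Col4a3, a chain of the mature glomerular and tubular basement membrane, went from -0.50, -0.72 and -0.31 to 0.58, 0.34 and 0.82 (1.09 ± 0.17, 2.13-fold, adjusted p = 0.00109). Col6a1 rose 2.02-fold (1.0, 0.95 and 0.53 against 1.88, 1.89 and 1.74), with control at 1.36, 1.29 and 0.95. Col27a1 rose 3.59-fold (1.85 ± 0.09, adjusted p = 6.00e-06) to levels of 0.47, 0.48 and 0.41, below the control levels of 0.87, 0.98 and 1.15. The type IV chains moved both ways: Col4a1 (-1.10 ± 0.15) and Col4a2 (-0.53 ± 0.14) fell, and Col4a3 and Col4a4 (0.87 ± 0.13) rose. The fall of Col4a2 was lost with normexp (-0.35, adjusted p = 0.103) and without obstructed kidney 1 or 2 or released kidney 3 (adjusted p up to 0.0586).

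Of 34 matrix glycoprotein and crosslinking genes 13 fell and 5 rose (median -0.43), and with normexp 11 fell and 2 rose. Fn1, fibronectin, fell 2.91-fold, from 1.03, 1.08 and 1.02 to -0.29, -0.71 and -0.50 (-1.54 ± 0.13, adjusted p = 5.25e-05), and remained above control (-1.45, -1.69 and -1.36; 1.0 ± 0.13, adjusted p = 0.0212). Spp1, the osteopontin gene, fell 2.43-fold. Tnn, tenascin N, which was well above background on 2 of the obstructed arrays, rose 5.32-fold and Fmod, fibromodulin, 3.45-fold, but with normexp the changes were 0.28 (adjusted p = 0.558) and 0.84 (0.0626). Of 22 proteases and inhibitors 14 fell and 4 rose (median -0.82), with 11 and 2 under normexp; Mmp7, matrilysin, fell 9.59-fold (-0.34, -0.05 and 0.41 against -4.28, -2.84 and -2.64, the latter well above background on 2 arrays), and Timp3 rose (0.83 ± 0.17). Mmp13, a collagenase, was well above background on 1 obstructed array and rose 4.60-fold, but had a change of -0.12 with normexp.

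Contractile genes of myofibroblasts fell in 17 of 21 cases and rose in 0 (median -1.17). Acta2, smooth muscle actin, fell from 6.13, 5.78 and 5.33 to 3.21, 3.22 and 3.38 by its brightest probe (-2.48 ± 0.20, 5.57-fold, adjusted p = 4.19e-05), and its 3 probes gave changes of -2.60 to -0.95. Tagln, which binds actin, fell 3.93-fold. In the fibroblast and pericyte list 7 of 22 fell and 5 rose (median -0.08), against 17.4% and 23.5% of all genes. Thy1, a surface protein of fibroblasts, fell 3.94-fold (1.99, 2.29 and 1.54 against -0.27, 0.23 and -0.09; a dimmer probe gave -0.90), and Rgs5, a gene of pericytes, rose 2.46-fold (0.76, 0.67 and 0.93 against 1.81, 2.19 and 2.26; adjusted p = 0.000141). Pdgfrb, the receptor that marks pericytes and fibroblasts, had levels of 3.97, 4.12 and 3.85 and 3.37, 3.55 and 3.73, which do not overlap, but its change of -0.43 ± 0.15 did not pass (adjusted p = 0.0507).

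Of 31 genes of the TGF-beta family 15 fell and 7 rose (median -0.22), and with normexp 12 fell and 3 rose. The ligand Tgfb1, a main driver of fibrosis, fell from 0.17, 0.27 and -0.28 to -1.05, -1.01 and -1.33 (-1.18 ± 0.18, 2.27-fold, adjusted p = 0.00109), and the activin chains Inhba (-1.72 ± 0.43) and Inhbb (-1.91 ± 0.28; -0.53 by a dimmer probe) fell too. Bmper, a secreted regulator of BMPs, fell at least 3.1-fold. Bmp7, a ligand made by tubules, rose 2.02-fold (2.78, 2.30 and 2.52 against 3.75, 3.53 and 3.36; 1.02 ± 0.15, adjusted p = 0.000890).

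**Figure D3:**
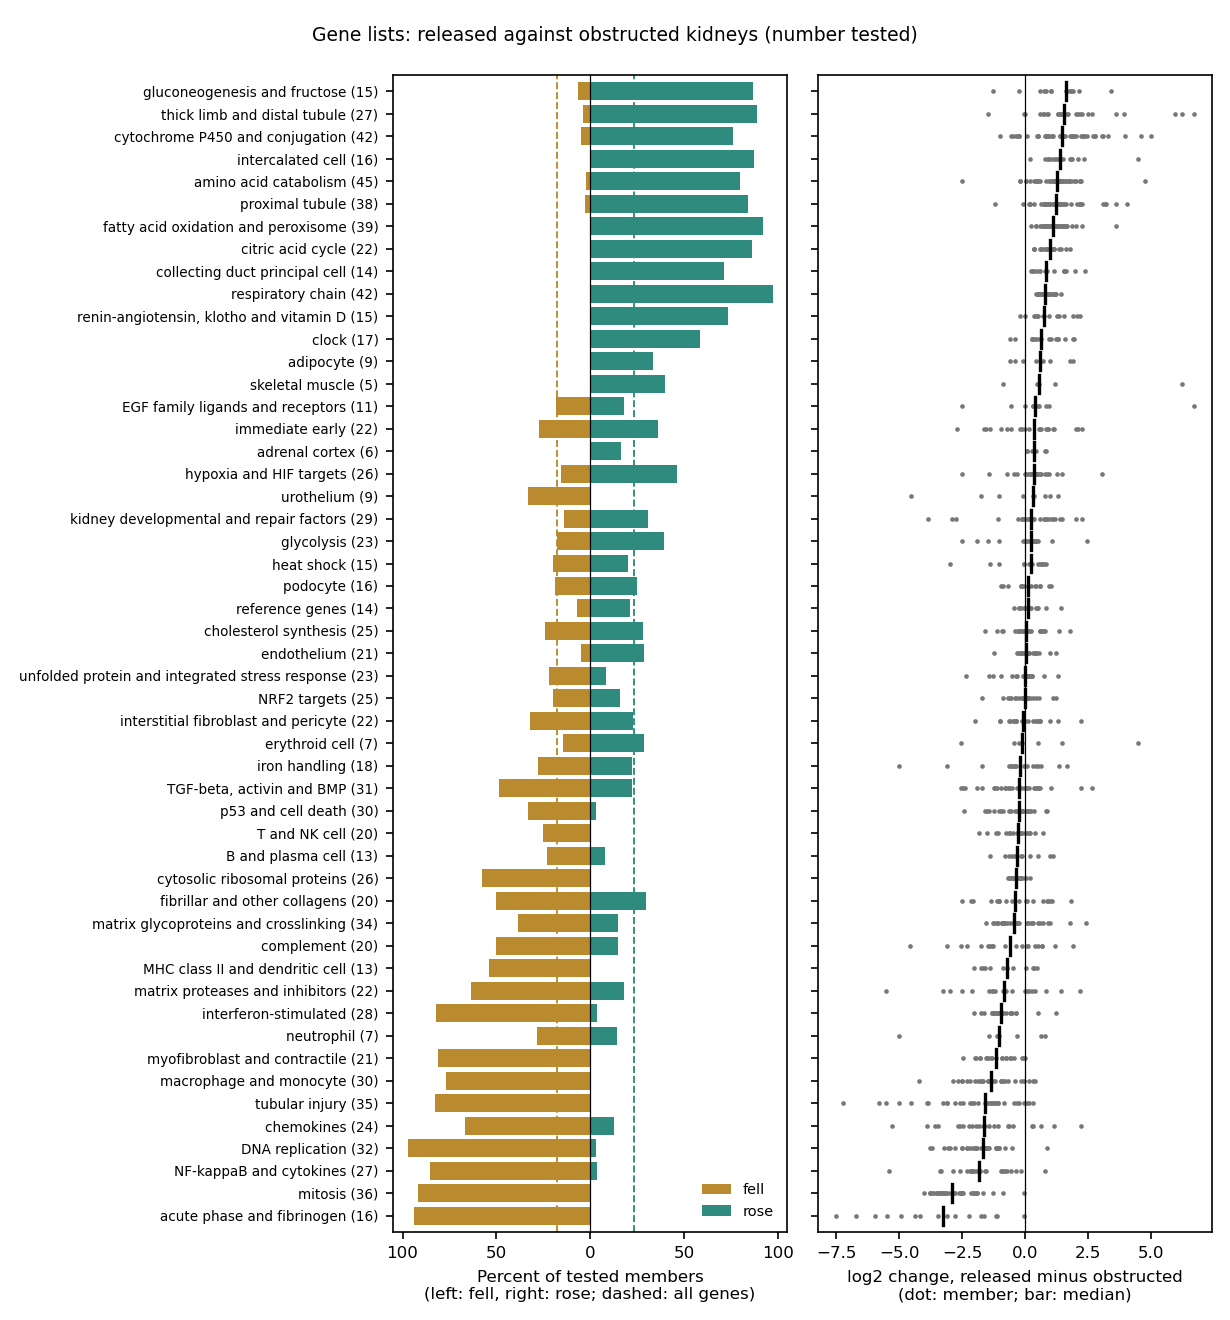
Left, percent of tested members of each of the 51 gene lists that fell (to the left) or rose (to the right) from obstructed to released kidneys, with dashed lines at the shares of all genes (17.4% and 23.5%); right, the log2 change of every member and the list's median. Lists are ordered by median, from acute phase at -3.28 to gluconeogenesis and fructose at 1.64.

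The genes that define the nephron's segments rose. Of 38 proximal tubule genes 32 rose and 1 fell (median 1.23), of 27 thick limb and distal tubule genes 24 rose and 1 fell (1.57), of 14 principal cell genes 10 rose and 0 fell (0.83), and of 16 intercalated cell genes 14 rose and 0 fell (1.38). Among all genes 23.5% rose. The medians against control were -0.15, 0.14, 0.16 and 0.03 in the released kidneys, in that order, and -1.43, -1.53, -0.42 and -1.19 in the obstructed ones.

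Egf, the growth factor precursor of the thick limb and distal convoluted tubule, had the largest rise of any gene with a symbol, 106-fold. Its levels were -0.85, -0.93 and -0.87 in obstructed and 5.82, 5.74 and 5.97 in released kidneys (6.73 ± 0.10, adjusted p = 2.56e-08), and 5.93, 6.11 and 6.22 in control kidneys. Pvalb, parvalbumin of the distal convoluted tubule, rose at least 16.7-fold, and Tmem207, at least 20.7-fold, from levels not well above background on any obstructed array; the changes with normexp were 1.53 and 1.64. Calb1, the calcium buffer calbindin of the distal tubule, rose 15.3-fold (1.62, 1.62 and 1.74 against 5.63, 5.49 and 5.65; adjusted p = 1.85e-06). Slc12a1, the salt cotransporter NKCC2 of the thick limb, rose 12.4-fold (1.41, 1.53 and 1.31 against 5.04, 4.89 and 5.22; 3.64 ± 0.12, adjusted p = 1.85e-06). For these genes the released kidneys lay within 1 log2 unit of each other and far from the obstructed ones.

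Umod, which encodes uromodulin, the main protein of normal urine, stood at 7.06, 7.37 and 7.14 against 8.08, 8.08 and 8.17, a rise of 1.90-fold (0.92 ± 0.12, adjusted p = 0.000420). The calcium channel gene Trpv5 was the member of the list that fell, from -2.25, -2.32 and -1.96 to -4.09, -3.44 and -3.35 (-1.45 ± 0.29, 2.74-fold, adjusted p = 0.00409), with control at -4.51, -3.52 and -3.67; 2 of the released arrays were well above background.

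In the proximal tubule Slc7a13, an amino acid transporter of the last segment, rose 16.5-fold (0.37, -0.21 and 0.71 against 4.26, 4.16 and 4.58; 4.04 ± 0.23, adjusted p = 8.93e-06). Mep1b, a brush border protease, rose 12.2-fold, and Slc22a30, of the organic anion transporter family, 9.44-fold. Slc34a1, the main phosphate transporter, rose 4.15-fold (4.82, 4.27 and 4.87 against 6.89, 6.72 and 6.49; 2.05 ± 0.18, adjusted p = 5.55e-05). Kap, an androgen-regulated gene of the same cells, rose 1.71-fold (0.77 ± 0.21, adjusted p = 0.0166), a call lost without obstructed kidney 3 or released kidney 1, where the adjusted p reached 0.0549. Slc13a1, the sulfate transporter, fell: 4.11, 3.99 and 4.23 in obstructed, 2.92, 3.04 and 2.78 in released and 2.90, 3.24 and 2.56 in control kidneys (-1.19 ± 0.17, 2.29-fold, adjusted p = 0.000738).

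Water channel genes of the collecting duct rose. Aqp2, which vasopressin moves to the apical membrane, rose 3.92-fold (2.87, 2.57 and 2.68 against 4.80, 4.62 and 4.61; adjusted p = 5.60e-05), and Aqp3, the basolateral channel, 5.27-fold (2.56, 2.38 and 2.95 against 5.10, 5.03 and 4.97; adjusted p = 1.70e-05). In intercalated cells, which secrete acid and base, the anion exchanger Slc4a1 rose 22.4-fold, from -2.06, -2.38 and -2.53 to 2.25, 2.32 and 1.91 (4.49 ± 0.15, adjusted p = 1.85e-06). Slc4a1 is also the band 3 protein of red cells, and the haemoglobin gene Hba-a1 had 3.08, 3.53 and 2.71 and 2.76, 2.25 and 3.55 (-0.26 ± 1.02, adjusted p = 0.863). The erythroid list of 7 tested genes, which holds both, moved in both directions, with 2 rises and 1 fall. The part of red cells in the rise of Slc4a1 was not tested.

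In the list of developmental and repair factors 9 of 29 rose and 4 fell (median 0.25), against 23.5% and 17.4% of all genes. The falls were Sox9, Foxm1, a driver of mitosis, Foxj1, a factor of motile cilia, and Elf3. Esrrb, an orphan nuclear receptor, rose 4.85-fold (-2.44, -2.16 and -2.59 against -0.33, 0.00 and -0.02; adjusted p = 1.22e-05), and Klf15, a regulator of metabolic genes, 4.03-fold (0.32, -0.14 and 0.47 against 1.98, 2.49 and 2.21; adjusted p = 7.49e-05). Hnf4a, a master factor of the proximal tubule, rose 1.90-fold (0.92 ± 0.19, adjusted p = 0.00551).

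**Figure D4:**
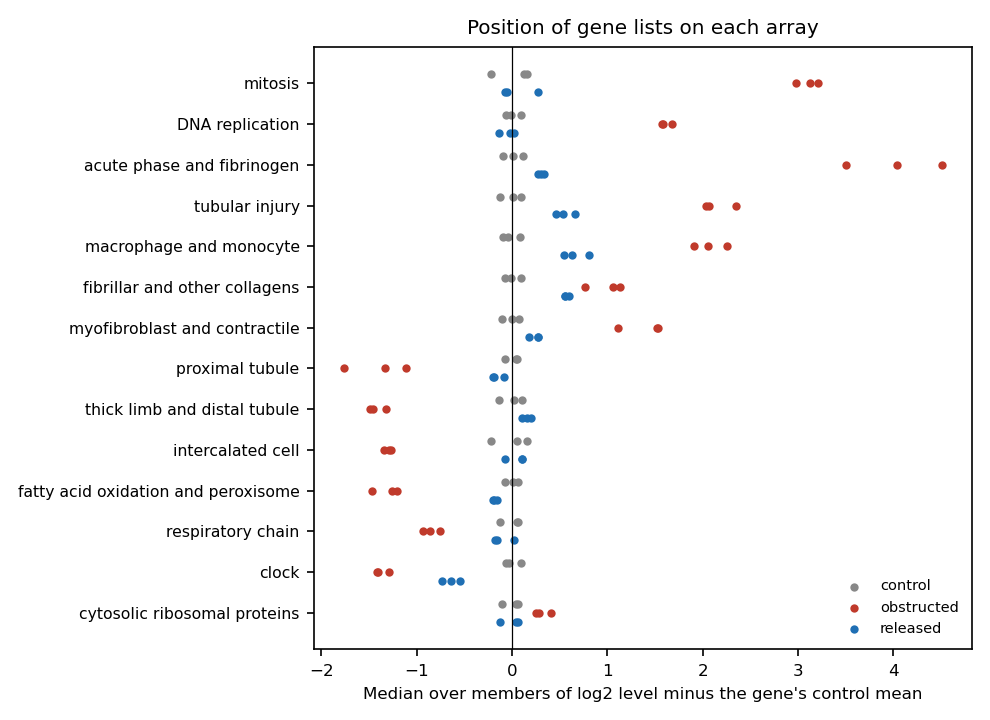
Position of 14 gene lists on every array: the median over a list's tested members of log2 level minus the gene's control mean, for 3 control (grey), 3 obstructed (red) and 3 released kidneys (blue). Released kidneys lie near 0 for the segment, metabolism, mitosis and replication lists, and between obstructed and control kidneys for tubular injury (0.46 to 0.66), macrophage (0.54 to 0.81), collagen (0.56 to 0.60) and clock genes (-0.73 to -0.54).

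Genes of energy metabolism rose across its pathways. Of 42 respiratory chain genes 41 rose and 0 fell (median 0.79), of 39 fatty acid oxidation and peroxisome genes 36 rose and 0 fell (1.13), and of 22 citric acid cycle genes 19 rose and 0 fell (0.98). The respiratory chain moved as a narrow band, from 0.44 for Ndufs4 to 1.44 for Sdha. Sdha, of succinate dehydrogenase, stood at 2.60, 2.41 and 2.72 in obstructed and 4.08, 3.93 and 4.03 in released kidneys (1.44 ± 0.11, 2.71-fold, adjusted p = 3.74e-05). Acsm2, an acyl-CoA synthetase, rose by 2.27 ± 0.17, and Ehhadh, of peroxisomal oxidation, by 2.05 ± 0.26.

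Genes of glucose production and amino acid breakdown rose too. Of 15 gluconeogenesis and fructose genes 13 rose and 1 fell (median 1.64), and of 45 amino acid catabolism genes 36 rose and 1 fell (1.26). G6pc, which releases free glucose, rose 10.6-fold (2.18, 1.35 and 2.0 against 5.23, 5.46 and 5.07; 3.41 ± 0.24, adjusted p = 2.36e-05), and Hpd, of tyrosine breakdown, 27-fold (-2.74, -3.74 and -3.12 against 1.26, 2.16 and 1.25; adjusted p = 1.51e-05). The members that fell were Pck2, the mitochondrial form of the carboxykinase, from 2.53, 2.45 and 2.08 to 1.17, 1.05 and 1.08 (-1.25 ± 0.16, adjusted p = 0.000419), and Arg2, the mitochondrial arginase, from 0.75, 0.65 and 0.74 to -1.62, -2.20 and -1.52 (-2.49 ± 0.26, 5.63-fold, adjusted p = 0.000140). Against control the released kidneys differed by 0.10 ± 0.16 for Pck2 and 0.05 ± 0.26 for Arg2.

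Glycolysis genes moved both ways. Of 23 genes 9 rose and 4 fell, against 23.5% and 17.4% of all genes, with a median of 0.25 (0.01 with quantile normalization). The falls were the hexokinases Hk2 (0.24, 0.39 and 0.29 against -2.71, -1.94 and -1.94; -2.50 ± 0.25, 5.67-fold, adjusted p = 0.000121) and Hk3 (-1.91 ± 0.28), the pyruvate kinase Pklr (-1.48 ± 0.21) and the lactate exporter Slc16a3 (-1.02 ± 0.30). The call of Slc16a3 was lost with normexp (0.0528) and without any 1 of obstructed kidneys 1 or 2 or any released kidney (adjusted p up to 0.0802). Pgam2, the muscle form of phosphoglycerate mutase, rose 5.52-fold (0.92, 0.56 and 0.72 against 3.35, 3.18 and 3.06; adjusted p = 1.28e-05), and Pfkm, the muscle form of phosphofructokinase, by 1.06 ± 0.10.

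Of 42 cytochrome P450 and conjugation genes 32 rose and 2 fell (median 1.46). The carboxylesterases Ces1g and Ces1e, which split esters of drugs and lipids, rose 32.1-fold and 24.6-fold; Ces1e stood at -0.71, -1.40 and -0.76 and 3.85, 3.78 and 3.36 (4.62 ± 0.20, adjusted p = 3.41e-06). Members of this family, like the Cyp2d, Saa and Sprr2 genes, are close in sequence, so a probe may read its neighbours. Cyp1b1 (-1.0 ± 0.13) and Cyp2s1 (-0.57 ± 0.17) fell, the latter a call lost with normexp (adjusted p = 0.212) and without any 1 obstructed kidney or released kidney 1 or 2 (up to 0.0917).

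Stress pathways did not move as blocks. Of 25 NRF2 targets 4 rose and 5 fell, and of 23 genes of the unfolded protein and integrated stress responses 2 rose and 5 fell. Of 15 heat shock genes 3 rose and 3 fell, and of 25 cholesterol synthesis genes 7 rose and 6 fell, against 23.5% and 17.4% of all genes. With normexp 2 and 2 NRF2 targets, 1 and 3 stress response genes, 4 and 3 heat shock genes and 5 and 3 cholesterol genes rose and fell. Hmox1, haem oxygenase, fell from 3.99, 3.95 and 3.98 to 2.29, 2.27 and 2.25 (-1.70 ± 0.09, 3.26-fold, adjusted p = 7.89e-06). Asns, asparagine synthetase, fell 5.13-fold (-2.36 ± 0.25) and the small heat shock protein Hspb1 7.94-fold (4.80, 4.95 and 4.51 against 1.63, 1.89 and 1.77; adjusted p = 2.96e-05).

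Of 22 immediate early genes 8 rose and 6 fell, against 23.5% and 17.4% of all genes. Dusp1, a phosphatase that ends MAP kinase signals, rose 4.84-fold (0.21, 1.04 and 1.22 against 2.74, 3.33 and 3.23; 2.27 ± 0.27), and Fosl1, an AP-1 subunit, fell at least 2.41-fold. In the hypoxia list 12 of 26 rose and 4 fell (median 0.34), in mice that were anaemic in every arm. The list's median against control was -0.49 in obstructed and -0.05 in released kidneys. In the released kidneys 0 members were called higher and 0 lower than control. Car9, a carbonic anhydrase and HIF target, rose 8.27-fold (-2.0, -2.18 and -1.57 against 0.94, 1.42 and 1.03; adjusted p = 1.65e-05), and Vegfa, the vascular growth factor, 2.44-fold (2.30, 2.21 and 2.41 against 3.59, 3.57 and 3.61; adjusted p = 3.29e-05). Of 18 iron handling genes 4 rose and 5 fell (2 and 3 with normexp), and Cp, the ferroxidase ceruloplasmin, fell 8.53-fold (-3.09 ± 0.26).

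Of 15 genes of renin, angiotensin, vitamin D and klotho biology 11 rose and 0 fell (median 0.74). The shares of all genes were 23.5% and 17.4%, for this list and the EGF family list below. Kl, klotho, the coreceptor of FGF23, rose 3.73-fold (1.88, 1.63 and 2.07 against 4.0, 3.72 and 3.57; 1.90 ± 0.15, adjusted p = 3.35e-05), and Ren1, renin, 2.56-fold (3.72, 3.48 and 2.96 against 5.06, 4.56 and 4.59; adjusted p = 0.00513). Among EGF family genes 2 of 11 rose and 2 fell: beside the rise of Egf, the ligand Nrg1 fell 5.64-fold (-0.14, -0.55 and -0.28 against -2.57, -2.77 and -3.12; -3.25 to -1.96 over 3 probes) and the receptor Egfr fell too (-0.55 ± 0.10, adjusted p = 0.00318; -0.34 and 0.178 with normexp). Cytosolic ribosomal protein genes fell in 15 of 26 cases by small amounts (median -0.36). Each of these calls was lost under normexp, where limma called 0 of them (median -0.14) and 2 were lower and 1 higher at an unadjusted p under 0.05.

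Genes of other cells that a whole kidney holds, or that may come with it, moved in both directions, in shares to be read against the 41% of all genes called. Of 16 podocyte genes 4 rose and 3 fell, and of 21 endothelial genes 6 rose and 1 fell, among the rises Kdr, the main VEGF receptor (1.25 ± 0.16, 2.38-fold). Of 9 urothelial genes 0 rose and 3 fell; the falls were the keratins Krt20, Krt5 and Krt13, and the 5 uroplakin genes tested did not pass. The fall of Krt13 (-1.04 ± 0.30), which was well above background on 1 released array, was lost with normexp (0.0635), with replicate number as a block (0.0536) and without any 1 obstructed kidney (adjusted p up to 0.0673). Of 7 erythroid genes 2 rose and 1 fell, of 9 adipocyte genes 3 rose and 0 fell, of 6 adrenal genes 1 rose and 0 fell, and of 5 skeletal muscle genes 2 rose and 0 fell. The erythroid rises include Slc4a1, also counted as an intercalated cell gene. The muscle rises include Pvalb, also counted as a distal tubule gene. With normexp the calls in either direction were 3 podocyte, 5 endothelial, 2 urothelial, 2 erythroid, 1 adipocyte, 1 adrenal and 1 muscle gene. Fat markers varied between kidneys of the same arm: Cfd, adipsin, was 1.54, -5.91 and 1.04 in obstructed and -0.51, 0.01 and 2.88 in released kidneys, and Adipoq, adiponectin, -2.14, -6.94 and -2.84 and -4.42, -3.60 and -0.97. The second obstructed kidney was not well above background for either. The part of attached fat in other results was not tested. The medians of the podocyte, endothelium, urothelium, adipocyte, adrenal, skeletal muscle, EGF family, cholesterol, NRF2, unfolded protein and reference gene lists changed sign with normexp or quantile normalization, so these lists have no settled direction. Of 14 reference genes 3 rose and 1 fell, the largest change being that of Sdha, which is also a respiratory chain gene.

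The released kidneys were next placed against control. This uses the same released arrays, and the obstructed and released arms share the control arrays, so the comparisons are not independent. In the same fit 325 genes (1.83%) differed between released and control kidneys, 259 higher and 66 lower, and 8676 (48.9%) between obstructed and control. The first count was not firm: it was 0 higher and 1 lower with normexp and 751 and 412 with slide as a block. Leaving out any 1 array other than the untreated one (264 and 79) lowered it, at the most to 2 and 0 without the second released kidney and at the least to 170 and 42 without the third obstructed kidney. Genes that fell and still stood above control included Havcr1, Ccl2, Fn1 and C3, given above, and Aif1, a macrophage gene, at 1.68, 1.82 and 1.54 in obstructed, -0.08, 0.04 and -0.08 in released and -0.92, -0.96 and -0.77 in control kidneys (released minus control 0.85 ± 0.10, adjusted p = 0.0204).

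Clock genes were the list with the most members called lower than control in the released kidneys. Of 17 tested 10 rose and 0 fell (median 0.65), and with normexp 5 rose and 0 fell (median 0.29). The list's median against control was -1.37 in obstructed and -0.71 in released kidneys, with 7 members called lower and 1 higher. These calls were not firm. Over all genes 1 was called lower than control with normexp and 0 without the second released kidney, so at most 1 of the 7 was kept. Usp2, a clock-controlled deubiquitinase, rose 3.86-fold, from 0.42, 0.21 and 0.81 to 2.37, 2.38 and 2.54, against 3.62, 3.31 and 3.27 in control kidneys. Per2, a repressor of the clock, rose 2.52-fold (-2.82, -3.07 and -2.26 against -1.60, -1.06 and -1.49), with control at 0.39, 0.31 and -0.35; with normexp it did not pass (0.29, adjusted p = 0.346). Arntl, the activator BMAL1, stood at -1.55, -1.52 and -1.92 and -1.03, -1.17 and -0.84 (0.65 ± 0.27, adjusted p = 0.0834), above control (-3.99, -3.84 and -2.92), and passed with replicate number as a block (adjusted p = 0.0373). Dbp, an output gene, stood at 4.30, 4.26 and 4.70 and 4.93, 4.95 and 4.58, below control (6.17, 6.52 and 6.14). The labels give no time of day of collection, and its part in these values was not tested.

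For 87 genes (0.49%) both arms were called higher than control and did not differ past the threshold from each other, and for 23 (0.13%) both were called lower. Wnt4, a signal of the developing and injured tubule, was among the former (-1.70, -1.93 and -2.61 in obstructed, -1.90, -2.04 and -1.81 in released and -3.81, -5.03 and -4.53 in control kidneys; released minus obstructed 0.16 ± 0.32). Noct, a gene of clock output, was among the latter (0.66, 1.05 and 0.96 in obstructed, 0.96, 1.21 and 1.83 in released and 4.07, 3.46 and 3.74 in control kidneys; 0.44 ± 0.24), as were the glucocorticoid-induced Fkbp5 (0.77 ± 0.40) and the kinase Plk3 (0.87 ± 0.40). With normexp 0 genes were called higher and 1 lower in released than in control kidneys, so both counts hold only without that correction. A change that misses the threshold does not show equal levels.

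In 31 genes (0.175%) the released kidneys were the highest of the 3 arms by both comparisons, and in 15 (0.0845%) the lowest. Aire, a transcription factor known from the thymus, rose from -1.51, -1.96 and -2.24 to 1.06, 1.19 and 0.92 (2.96 ± 0.19, 7.77-fold), above control at 0.25, 0.16 and -0.10 (adjusted p = 0.0479). Stmn1, which destabilises microtubules in dividing cells, fell from 5.72, 5.73 and 5.85 to 4.06, 4.08 and 4.21 (-1.65 ± 0.11, 3.14-fold), below control at 5.12, 4.80 and 5.0 (adjusted p = 0.0212). The stress-responsive factor Maff fell to -0.86, -0.37 and -0.06, below control at 1.21, 0.83 and 0.71 (adjusted p = 0.0324). Both counts were 0 with normexp and also without the second released kidney, and were 142 and 76 with slide as a block. Leaving out any 1 array gave 0 to 47 and 0 to 29 such genes.

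**Figure D5:**
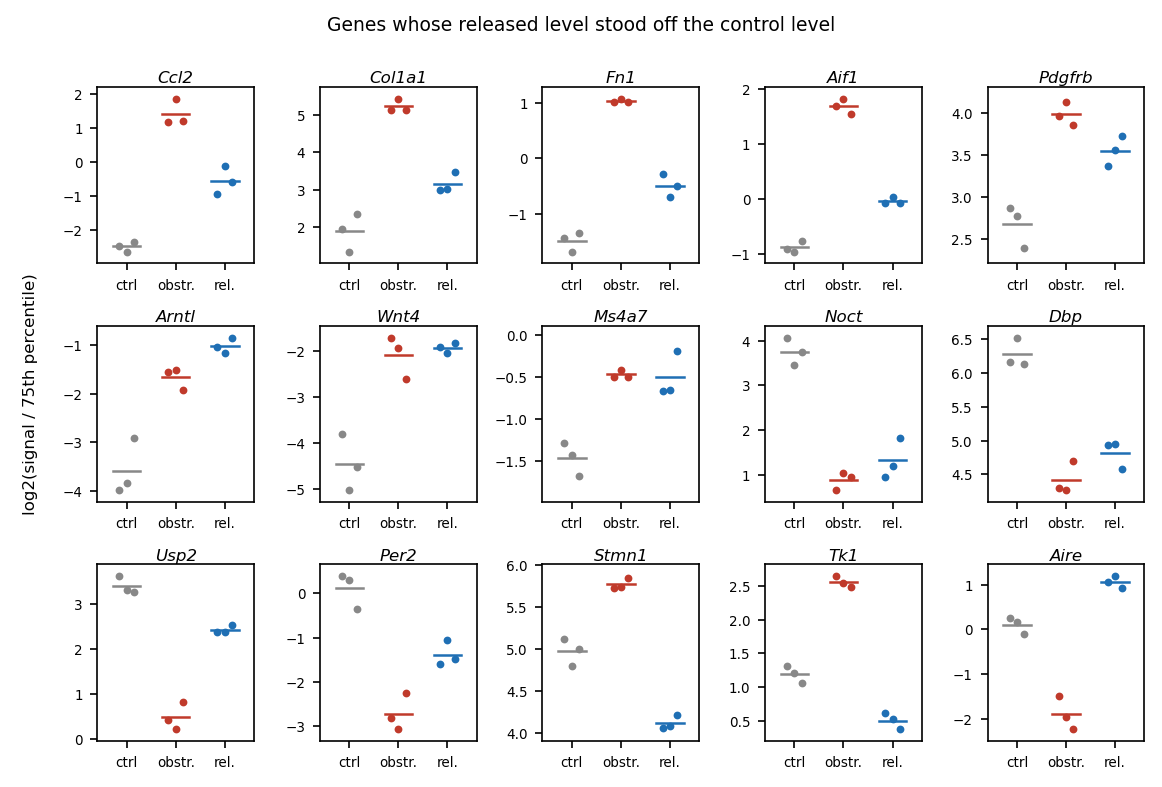
Level of 15 genes on every array, as log2 of the signal over the array's 75th percentile, with 3 control (grey), 3 obstructed (red) and 3 released kidneys (blue) and a line at each arm's mean; each panel has its own axis. Released kidneys lie between the other arms for Ccl2, Col1a1, Fn1 and Aif1, beside the obstructed ones for Wnt4, Ms4a7 and Noct, and outside both for Stmn1, Tk1 and Aire.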

How the data were processed

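Total RNA of whole left kidneys (500 ng) was labelled with Cy3 and hybridised to 1-colour Agilent arrays of 45018 spots, 1 kidney per array. The authors deposited the scanner output of each array. Per the file headers, Feature Extraction 10.7.3.1 had subtracted background and corrected spatial trends on a linear intensity scale (gProcessedSignal), had not scaled arrays to each other, and had flagged spots (scanner G2505C, design 014868, grid build mm9). The deposited value table of the series, whose probe names and values could not be matched to the scanner files, was not used.

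Control spots (1639) were removed, spots of a probe averaged, and log2 of the deposited processed intensity over the 75th percentile of the array was taken. A probe was kept if well above background on at least 3 of 9 arrays (23564 probes, of which 21 were left out for flags). The brightest kept probe stood for each gene. Of 41174 probes 26690 carry a symbol and 14484 an accession alone, and 13017 of the 17741 genes tested have a symbol. limma 3.58.1 (R 4.3.3) fitted 3 arms over 9 arrays (control: 2 sham and 1 untreated) with empirical Bayes (prior degrees of freedom 2.37) and Benjamini-Hochberg adjustment. No spot was saturated (0). The small number of arrays limits the precision. On simulated data over 17741 genes the fit recovered 62% of changes of 1 and 92% of changes of 2 on the log2 scale. Far fewer genes were changed in the simulation than were called in the kidneys. These rates belong to the simulation and were not shown to hold for the kidney arrays. Alternatives were normexp (offset 50; on the median spot signal, since the mean signal named beforehand is not in the files), quantile normalization, other filters and probe rules, slide or replicate number as a block, 6 arrays alone, 4 groups and leave-one-out.

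Obstructed and released arrays of the same replicate number share a slide. Their deviations from the arm means correlated at 0.220, 0.269 and 0.269, against -0.239 to -0.0159 for other pairs. Deviations from a mean cancel out within an arm, so the negative values are partly arithmetic. Arrays of the same number are of different mice, and whether they share more than a slide was not tested.

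The comparison, the 51 gene lists (1231 genes, 1074 tested, 2 names unmatched) and the tests were chosen with earlier results of these data known. Named genes are, among genes with a symbol, the 20 largest falls and 20 largest rises that passed, had arms apart and were well above background in the brighter arm, up to 3 rises and 3 falls per list (or the 2 smallest p), the 10 highest and 10 lowest in the released arm, 8 on each side that differed from control in both arms but not between them, and 13 genes listed in advance. Adipoq, Aif1, Anln, Bub1, C1qa, C1qb, C1qc, Calb1, Ccn2, Cd74, Cdk1, Cenpa, Cfd, Col4a1, Col4a2, Col4a4, Col6a2, Col7a1, Csf1r, Elf3, Fga, H2-Ab1, Hba-a1, Hbegf, Hnf4a, Inhba, Inhbb, Itih4, Krt23, Mki67, Ms4a7, Ndufs4, Per2, Ren1, S100a8, S100a9, Slc12a1 and Slc16a3 were named after their values were seen. Some genes that the rule names are not reported here.

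Promoter windows are the 250 bases before the RefSeq gene start (GRCm38.p6), matched by symbol for 10391 tested genes. Letters were searched on both strands. The 5 motifs described, given in the report, were chosen after the shares of 19 were seen. The 14 others were the NF-kappaB site, the HNF1 site in a full and a short form, E2F sites (TTTCCCGC or TTTGGCGC), STAT sites (CTGGGAA or TTCCNGGAA), the E-box CACGTG, HNF4 sites (CAAAGTCCA, TGAACTTTG, or TGACCTTTG), the C/EBP site TTATGNAA, and receptor half-sites (AAGGTCA or TCAAGGTCA). CTGGGAA holds CTGGGA, and the full HNF1 form holds the short one.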

Additional observations from a re-analysis of the deposited data

How the results depend on the processing

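The count of rises was 4178 in the main setting, 2270 with normexp and 10515 without a filter on dim probes, where 32282 genes were tested and the median change of all genes was 0.35; other settings gave 3253 to 5217. The count of falls was 3092, and 1874 with normexp; other settings gave 2459 to 3831. Of the 7270 calls 3993 were kept with the same sign under normexp, 6630 with quantile normalization and 7182 with slide as a block. With replicate number as a block 5139 genes rose and 3726 fell, 7009 calls were kept, and among the genes named the block changed the calls of Il1b, Krt13, Arntl and Cd74 and no other. The medians of 8 of the 51 lists changed sign with normexp and of 3 with quantile normalization. Genes highest in the released arm numbered 31, but 0 with normexp, 8 with quantile normalization, 3 without a filter, 142 with slide as a block and between 0 and 47 when any 1 array was left out; genes lowest there numbered 15, but 0 with normexp, 0 without a filter, 76 with slide as a block and between 0 and 29 when any 1 array was left out. The causes were not tested. The fit with replicate number as a block and the fit of 6 arrays hold no control and gave no such counts.

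Changes that took the other sign were Adipoq -0.39, Mmp13 -0.12, Wnt4 -0.18 with normexp background correction and Ccn2 -0.00810 with quantile normalization. On leaving out 1 array the changes of these genes that missed the threshold spanned 0: Adipoq -0.51 to 1.90, Bub1 -0.14 to 0.0804, Ccn2 -0.15 to 0.51, Cfd -0.49 to 3.23, Hba-a1 -0.61 to 0.0450, Itih4 -0.25 to 0.35, Krt23 -0.00535 to 0.16, Ms4a7 -0.19 to 0.0459, Wnt4 -0.10 to 0.35. Of the genes named that passed, Mmp13 alone changed sign, under normexp. For 160 rises and 307 falls the dimmer arm had no probe well above background, and their size is a bound.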
